A study of Mus musculus with 70 samples.

Results

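The 30 genes described here encode 18 enzymes of the mevalonate and sterol pathway, 4 regulators or carriers of sterols (Srebf1, Srebf2, Insig1 and Stard4) and 8 genes of fatty acid synthesis and desaturation (Acly, Acaca, Fasn, Scd1, Scd2, Elovl6, Fads1 and Fads2). They were chosen by name from a list and not by their values, although earlier results of these data were known. They are 30 of the 34677 genes in the gene-level table. The sterol enzymes are reported apart from the fatty acid genes. mRNA was sequenced in 70 mouse libraries of 24 groups, all labelled as C57BL/6, the mice and embryos being C57BL/6NTac by the study's methods. The study took adult tissue from male mice at postnatal day 56 (P56) as punches of frozen brain, embryonic tissue at E14.5, and 2 cultured clones of mouse embryonic stem cells (mESC). No brain group was treated, and no group carried a transgene. By the study's methods the stem cells were seeded for collection in medium with leukemia inhibitory factor and kinase inhibitors, which no brain group received.

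The 57 adult libraries came from 18 regions. Cortex was the frontal pole (FRP, n = 3), the anterior cingulate area (ACA, n = 3) and the entorhinal area (ENT, n = 3). The hypothalamus was sampled in the arcuate nucleus (ARH, n = 3), the ventromedial nucleus (VMH, n = 2), the dorsomedial nucleus (DMH, n = 4), the paraventricular nucleus (PVH, n = 2) and the lateral area (LHA, n = 3). The hindbrain nuclei were the parabrachial nucleus (PB, n = 3), the nucleus of the solitary tract (NTS, n = 4) and the dorsal-vagal complex (DVC, n = 3). Cerebellar cortex was central lobule II (CENT2, n = 4), culmen lobules IV-V (CUL4-5, n = 4), the uvula (UVU, n = 3) and the flocculus (FL, n = 4). The nucleus accumbens (ACB), the ventral tegmental area (VTA) and the cerebellar nuclei (CBN) had 3 libraries each. The embryonic groups were forebrain (F, n = 1), midbrain (M, n = 2), hindbrain (H, n = 3) and the terminal and peduncular hypothalamus (THy-PHy, n = 3). The stem cell clones, mESC B6-1 and mESC B6-2, had 2 libraries each, and each line is a single clone, kept on feeder fibroblasts that were removed by passage on gelatin before RNA was taken. Tissue of several mice was pooled for nearly every brain library, and several regions came from the same mice. By the study's methods the exception was 1 ACB library, from 1 mouse. Apart from that library, a p-value here measures the spread between pools. The adult, embryonic and stem cell material came in separate batches by the study's overview of its samples, so stage and batch cannot be told apart.

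Brain makes its own cholesterol, because lipoproteins of the blood do not cross the blood-brain barrier. Acetyl-CoA is built up to mevalonate, then to isoprenoid units, squalene, lanosterol and finally cholesterol, and myelin holds a large part of the product. The transcription factors SREBP-2 (Srebf2) and SREBP-1 (Srebf1) raise the transcription of the sterol and the fatty acid genes when membranes are poor in sterol, and Insig1 holds them back in the endoplasmic reticulum when sterol is abundant.

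Median library totals of estimated counts were 17045412 in the adult, 16413807 in the embryonic and 17612532 in the mESC libraries. All 30 genes passed the filter on low counts in a table of 19980 genes. A pair of libraries stood apart. VTA replicate 1 had 39.62% of its TPM, the transcript abundance scaled by length and library, on mitochondrial genes, against 6.025% and 14.18% in the other VTA libraries, and H replicate 1 had 22.56% against 11.81% and 6.104%, with the lowest total count (9074581). Results that rest on either library are given with and without it. The single F library had a summed level of 5 proliferation markers of 1492 TPM, against 239.2 to 401 TPM in the other embryonic libraries. Summed pluripotency markers reached 2442 to 2581 TPM in mESC and at most 23.09 TPM in brain, and 4 embryonic neural markers summed to 474.7 to 1024 TPM in the embryonic libraries and to at most 67.46 TPM in the adult ones. The 3 CBN libraries held 102.7 to 502.8 TPM of 4 choroid plexus markers. These markers also reached 376.2 TPM in a library of the hindbrain nuclei, where the median was 4.597 TPM.

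The promoters of the members are shown because SREBP proteins act there together with the CCAAT-binding factor NF-Y. RefSeq promoters of build GRCm38.p6, each reaching from 250 bases before to 50 bases after a gene start, were found for 23 of the 30 genes, with 28 promoters in all. Fdps, Fdft1, Sqle, Stard4, Scd1, Scd2 and Fads1 had no entry. The sequences below run 5′ to 3′ on the strand of the gene, and capitals mark the matches of CCAAT on either strand, which reads as ATTGG where the match lies on the other one, and of the sterol regulatory element TCACNCCAC on either strand. Hmgcs1, the synthase that forms HMG-CoA, lies at chr13:119690379-119708260 on the plus strand, and was the only member whose promoter held the sterol regulatory element. Mvk (mevalonate kinase) and Ebp (a sterol isomerase) were added after their values had been seen, Mvk for its 5 CCAAT matches and Ebp because its level departs from that of the other enzymes.
Hmgcs1 promoter, chr13:119690101-119690400, plus strand: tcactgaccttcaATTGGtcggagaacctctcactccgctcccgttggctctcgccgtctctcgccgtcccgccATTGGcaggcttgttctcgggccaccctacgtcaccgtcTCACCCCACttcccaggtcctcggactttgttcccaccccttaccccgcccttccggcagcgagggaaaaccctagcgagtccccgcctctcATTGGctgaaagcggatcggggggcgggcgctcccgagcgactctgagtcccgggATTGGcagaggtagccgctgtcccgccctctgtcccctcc
Mvk promoter, chr5:114444019-114444318, plus strand: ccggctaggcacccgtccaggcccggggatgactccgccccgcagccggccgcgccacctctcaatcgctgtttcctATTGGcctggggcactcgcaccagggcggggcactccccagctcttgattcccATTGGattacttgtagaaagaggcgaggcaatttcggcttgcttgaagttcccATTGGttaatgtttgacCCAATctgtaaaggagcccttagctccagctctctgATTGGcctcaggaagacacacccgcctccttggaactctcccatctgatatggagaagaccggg
Ebp promoter, chrX:8193463-8193762, minus strand: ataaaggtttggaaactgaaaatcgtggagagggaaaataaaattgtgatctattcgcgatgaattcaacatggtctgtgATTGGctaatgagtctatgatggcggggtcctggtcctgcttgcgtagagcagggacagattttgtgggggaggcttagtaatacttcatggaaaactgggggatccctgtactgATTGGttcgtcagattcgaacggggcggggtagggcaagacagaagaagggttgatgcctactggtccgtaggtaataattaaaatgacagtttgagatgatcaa

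In the Hmgcs1 promoter the sterol regulatory element began 137 bases before the start site, and 4 CCAAT matches lay around it. Over both strands, CCAAT was found in the promoters of 14 of the 15 sterol enzyme genes with an entry (93.3%), against 41.1% of all 27025 genes with a promoter of this length. Of the 5 fatty acid genes with an entry, 2 held CCAAT (40%). The sterol regulatory element was found in 1.24% of all 32851 promoters. The E box CACGTG was found in 4 of the 28 member promoters (14.3%), against 7.15% of all promoters. A match of letters is not a bound site, and a promoter without a match says nothing of the factor.

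Levels are given in TPM, which is per length and so comparable between genes. In the adult brain the sterol enzymes summed to between 673.6 ± 21.65 TPM in CUL4-5 (SD, n = 4) and 1450 ± 110.3 TPM in DVC (SD, n = 3), a ratio of 2.152. PB was next to DVC, at 1444 ± 67.74 TPM (SD, n = 3), and the NTS and DMH followed with 1302 and 1288 TPM. The lowest region outside the cerebellar cortex was ACB, with 776.4 TPM, and the cerebellar lobules UVU and CENT2 lay under it with 674.1 and 696.2 TPM. Of the 17 pairs of neighbours in this order, 15 did not differ beyond their SD, so the order is one of broad bands and not of single regions. The fatty acid genes summed to between 927.4 ± 19.74 TPM in ACA and 2093 ± 62.66 TPM in PB (SD, n = 3 each), a ratio of 2.257, and 13 of their 17 neighbours lay within the SD. Here the 3 cortical areas were the lowest regions, at 927.4 to 1043 TPM, and LHA (2006 TPM) stood between PB and DVC (1994 TPM). On counts scaled by TMM library sizes, VTA had the highest sterol sum and NTS the highest fatty acid sum, while CUL4-5 and ACA stayed lowest. On TPM, both branches were highest in a hindbrain nucleus, while cerebellar cortex was lowest for the sterol enzymes and cerebral cortex for the fatty acid genes. Within the cerebellar cortex, the flocculus held more of both (927.8 and 1560 TPM) than the other 3 lobules (at most 696.2 and 1231 TPM), and its 10 myelin markers summed to 4678 to 5895 TPM, against 808.6 to 2059 TPM in those lobules. The part of myelin in this difference was not tested.

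**Figure D1:**
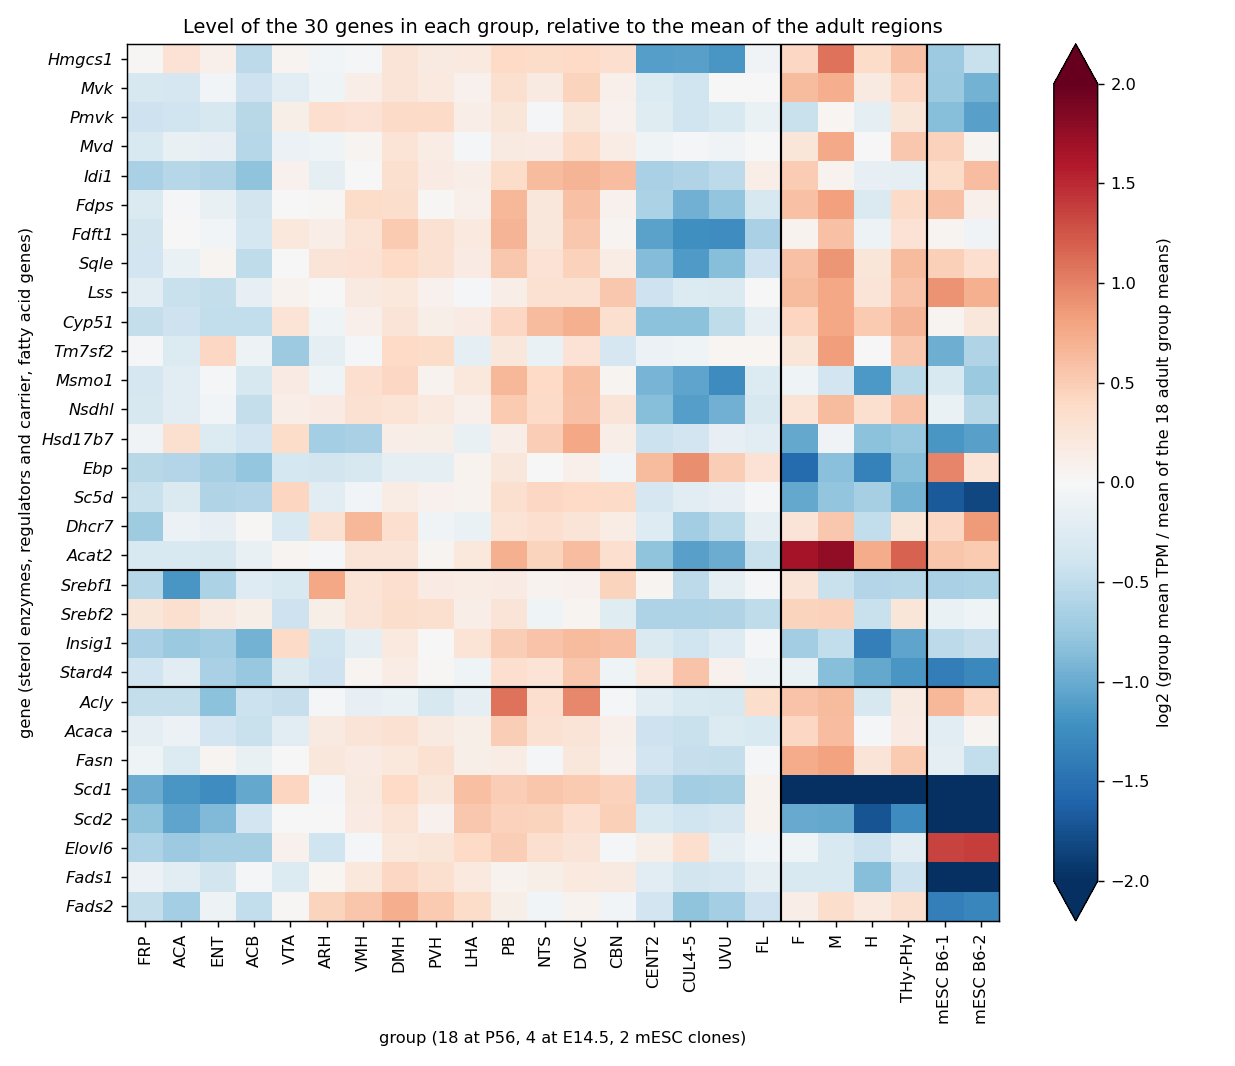
Levels of the 30 genes (rows, split into sterol enzymes, regulators and carrier, and fatty acid genes) in the 24 groups (columns), as log2 of the group mean TPM over the mean of the 18 adult group means, with colours limited to 2 in either direction. Scd1 is dark in every embryonic group, Ebp is brightest in CUL4-5 and in mESC B6-1, and Acly is bright in PB and DVC.

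**Figure D2:**
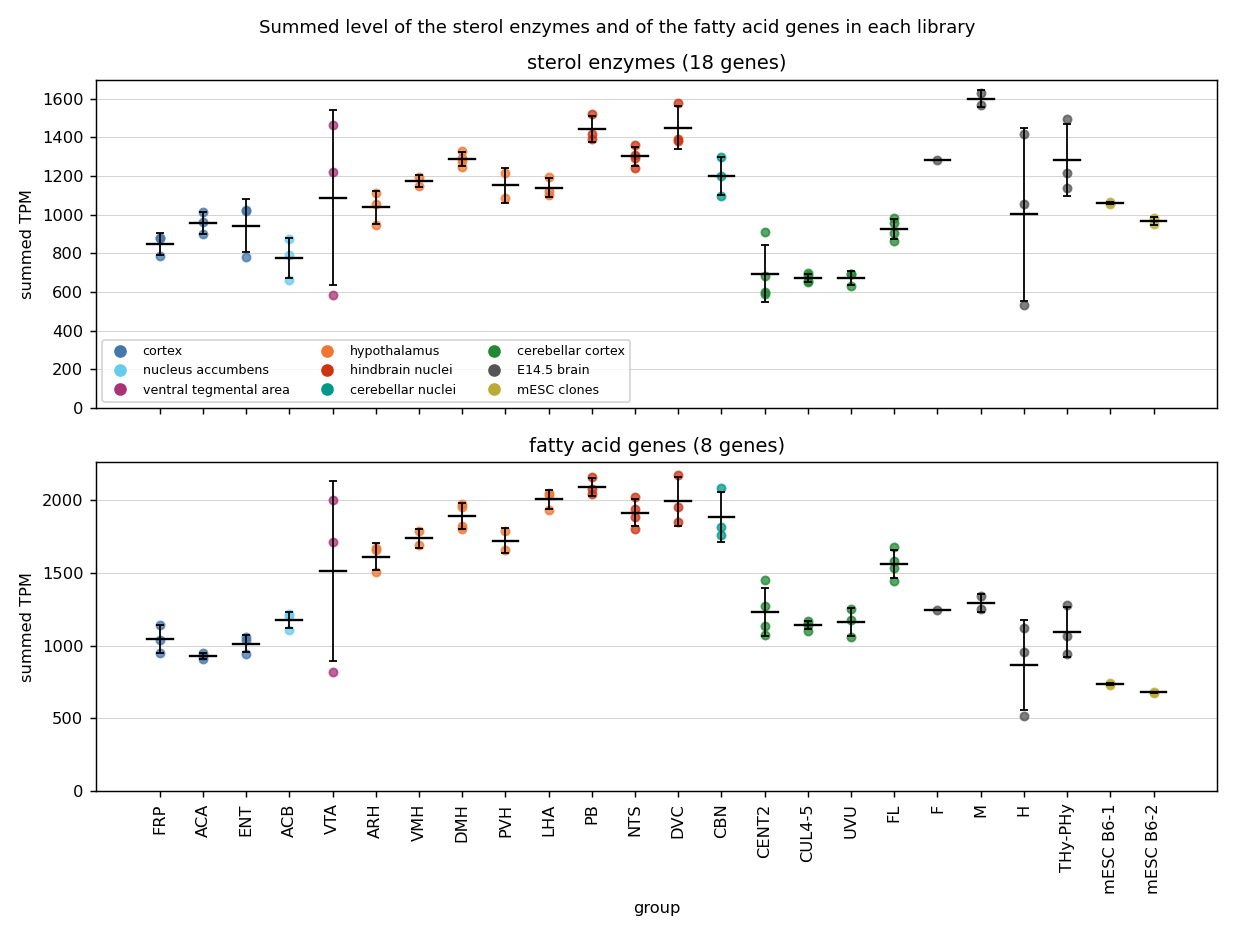
Summed TPM of the 18 sterol enzymes and of the 8 fatty acid genes in each library (points), with the group mean (line) and SD (bars) over the libraries of a group; F has 1 library and no SD. Among the adult groups DVC and PB stand highest for the sterol sum, and PB, followed by LHA, for the fatty acid sum. The spread is wide in VTA and H, each with 1 low library.

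Hmgcs1 made up 17.85% of the adult sterol sum, Msmo1 (a sterol methyl oxidase) 12.07% and Fdps (farnesyl diphosphate synthase) 10.12%. Scd2, the stearoyl-CoA desaturase that predominates in brain, made up 47.45% of the adult fatty acid sum. Without Scd2 the fatty acid sum still ranged from 575.7 TPM in ACA to 1092 TPM in PB. Taken gene by gene, 12 of the 18 sterol enzymes were highest in a hindbrain nucleus, 6 in DVC and 6 in PB. At the low end, 8 sterol enzymes were lowest in a lobule of the cerebellar cortex and 5 in ACB. Of the 8 fatty acid genes, 5 were highest in a hypothalamic region and 3 in PB. The widest adult ranges were those of Srebf1 (3.816-fold, ARH over ACA), Msmo1 (3.785-fold, PB over UVU) and Fdft1 (3.783-fold, PB over UVU). The quasi-likelihood F test of edgeR over the 18 adult groups called all 30 genes, against 80.9% of all genes tested, and for 23 of them the fitted range exceeded 1 on the log2 scale, against 56.8% of all genes.

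The hindbrain nuclei were compared with the other 15 adult regions to ask where in the adult brain lipid synthesis genes are high. All 30 members were higher in the hindbrain nuclei (edgeR quasi-likelihood test, Benjamini-Hochberg adjusted p under 0.05 over all genes), where 26.1% of all genes were called higher and 24.6% lower. At an unadjusted p under 0.05 edgeR had 0 members lower, and DESeq2 and limma called 0 lower. The median log2 fold change was 0.62 over the sterol enzymes and 0.49 over the fatty acid genes, and about 0 over all genes tested. Acly, the ATP citrate lyase that supplies acetyl-CoA to both pathways, had the largest difference. Its level was 344.1, 289.5 and 321.6 TPM in PB, 403.5, 223.7 and 246.3 TPM in DVC, and 172.9, 210.1, 208.3 and 168.3 TPM in NTS. The other adult libraries lay between 43.45 and 233.3 TPM, so the groups overlapped, and the highest of these values was in cerebellar cortex. The log2 fold change of Acly was 1.11 ± 0.07 (SE, adjusted p = 7.16e-19).

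Among the early sterol enzymes, Idi1 (isopentenyl diphosphate isomerase) was higher in the hindbrain nuclei by 0.78 ± 0.05 and Hmgcs1 by 0.60 ± 0.06 on the log2 scale. Hmgcs1 was at 236.7, 232.9 and 269.8 TPM in PB and at 85.75, 76.58 and 87.39 TPM in UVU. Among the later enzymes, Cyp51, the lanosterol demethylase, differed by 0.81 ± 0.05 (adjusted p = 9.86e-21) and Nsdhl, a sterol dehydrogenase, by 0.72 ± 0.06. Acat2, the cytosolic thiolase that makes acetoacetyl-CoA, differed by 0.82 ± 0.07. Insig1, the sterol-dependent brake on SREBP, was at 135.8, 128.7 and 140.9 TPM in DVC and at 39.75, 48.41 and 47.99 TPM in ACB, and differed by 0.82 ± 0.05 between the hindbrain nuclei and the rest. The smallest differences were those of the fatty acid desaturases Fads2 (0.17 ± 0.06) and Fads1 (0.21 ± 0.04) and of the transcription factors Srebf2 (0.18 ± 0.07) and Srebf1 (0.23 ± 0.07). All 10 oligodendrocyte and myelin markers were also higher in the hindbrain nuclei, with a median log2 fold change of 1.71 and a summed level of 5561 to 7909 TPM. Their part in the differences was not tested, and in bulk tissue fewer cells of a type and less RNA per cell cannot be told apart.

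In the cerebellar cortex, compared with the other 14 adult regions, 27 members were lower and 2 were higher, where 33.1% of all genes were lower and 32.9% higher. Of the 18 sterol enzymes, 17 were lower, with a median of −0.62, and 7 of the 8 fatty acid genes were lower, with a median of −0.53. Fdft1 (squalene synthase), which commits farnesyl diphosphate to sterols, was at 36.69, 31.82, 34 and 33.57 TPM in CUL4-5 and at 128.1, 128.1 and 124.8 TPM in PB. Its log2 fold change was −1.35 ± 0.06 (adjusted p = 1.47e-25). Msmo1 (−1.20 ± 0.05), Hmgcs1 (−1.15 ± 0.06), Acat2 (−1.12 ± 0.07), Sqle (squalene epoxidase, −1.10 ± 0.06) and Nsdhl (−1.10 ± 0.06) were lower by more than 1. Srebf2 (−0.86 ± 0.06) and Fads2 (−0.81 ± 0.06) followed. Tm7sf2, a sterol reductase, was called lower by −0.19 ± 0.07, but its value was 0.01 on the TPM scale with limma, and Elovl6, a fatty acid elongase, was −0.01 ± 0.04 and was not called.

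Ebp, the isomerase that moves the double bond of the sterol ring, was higher in the cerebellar cortex. It was at 106.4, 106.3, 107.9 and 122.6 TPM in CUL4-5, at 87.97, 96.39, 95.08 and 81.84 TPM in CENT2, and at 71.6, 85.62 and 90.65 TPM in UVU. In FL it was at 78.57, 68.1, 78.81 and 60.54 TPM, and in ACB at 30.91, 34.83 and 37.08 TPM. The other 42 adult libraries reached at most 72.37 TPM, so FL overlapped with them, while every library of CUL4-5 and CENT2 lay above them. The log2 fold change of Ebp was 0.70 ± 0.05 (adjusted p = 4.97e-19). The only other gene called higher was Stard4, a carrier of cholesterol between membranes, at 0.12 ± 0.04 (adjusted p = 0.00944). The astrocyte markers summed to 2987 to 6581 TPM in cerebellar cortex and to 1696 to 2164 TPM in cerebral cortex. The sums in the hindbrain nuclei (2963 to 3943 TPM) and in CBN (3555 to 3699 TPM) overlapped with those of the cerebellar cortex. Of the other markers, 5 of 5 for microglia and 9 of 10 for myelin were lower in cerebellar cortex than in the other regions. Their part in these results was not tested.

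In the cerebral cortex 16 members were lower and 3 were higher than in the other 15 regions, where 29.8% of all genes were lower and 28.9% higher. The fatty acid genes had a median log2 fold change of −0.40, with 6 of 8 lower, and the sterol enzymes had 7 lower and 2 higher. Scd1, a stearoyl-CoA desaturase, was at 58.33, 48.88 and 52.24 TPM in ENT and at 199.8, 189.8 and 185.7 TPM in LHA, and was lower in cortex by −1.09 ± 0.06 (adjusted p = 1.38e-21). Srebf1 (−0.95 ± 0.08), Scd2 (−0.90 ± 0.06), Elovl6 (−0.67 ± 0.05) and Insig1 (−0.65 ± 0.06) were lower as well. Srebf1 was at 20.89, 22.15 and 26.04 TPM in ACA and at 83.53, 103.5 and 76.53 TPM in ARH. The genes called higher in cortex were Srebf2 (0.46 ± 0.07), Hmgcs1 (0.31 ± 0.06) and Hsd17b7 (a sterol ketoreductase, 0.17 ± 0.06), so the 2 SREBP genes differed in opposite directions there. The 10 myelin markers were all lower in cortex, with a median of −2.33.

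In the hypothalamus, 20 members were higher and 2 were lower than in the other 13 regions, where 26.9% of all genes were higher and 24.3% lower. The differences were small, with a median of 0.15 over the sterol enzymes and 0.28 over the fatty acid genes, of which 7 of 8 were higher. Fads2, the desaturase that starts the synthesis of long polyunsaturated fatty acids, was at 224.9, 232.3, 216.3 and 245.6 TPM in DMH. It was at 80.56, 69.21, 80.73 and 86.28 TPM in CUL4-5, and every hypothalamic library (174.7 to 245.6 TPM) lay above every other adult library (at most 163.5 TPM). Its log2 fold change was 0.72 ± 0.05 (adjusted p = 1.39e-16). Srebf1 (0.54 ± 0.06), Scd1 (0.46 ± 0.05) and Sqle (0.41 ± 0.06) followed, and Hsd17b7 (−0.35 ± 0.06) and Ebp (−0.30 ± 0.05) were lower. Dhcr7, a reductase late in the pathway, was highest in VMH with 63.45 and 65.55 TPM over all its transcripts, but over its protein-coding transcripts alone DVC was highest, at 42.83 TPM. Of the 10 myelin markers 1 was called lower in the hypothalamus and none higher, by the same edgeR test, and their sum ranged from 620.6 to 8182 TPM among its libraries.

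**Figure D3:**
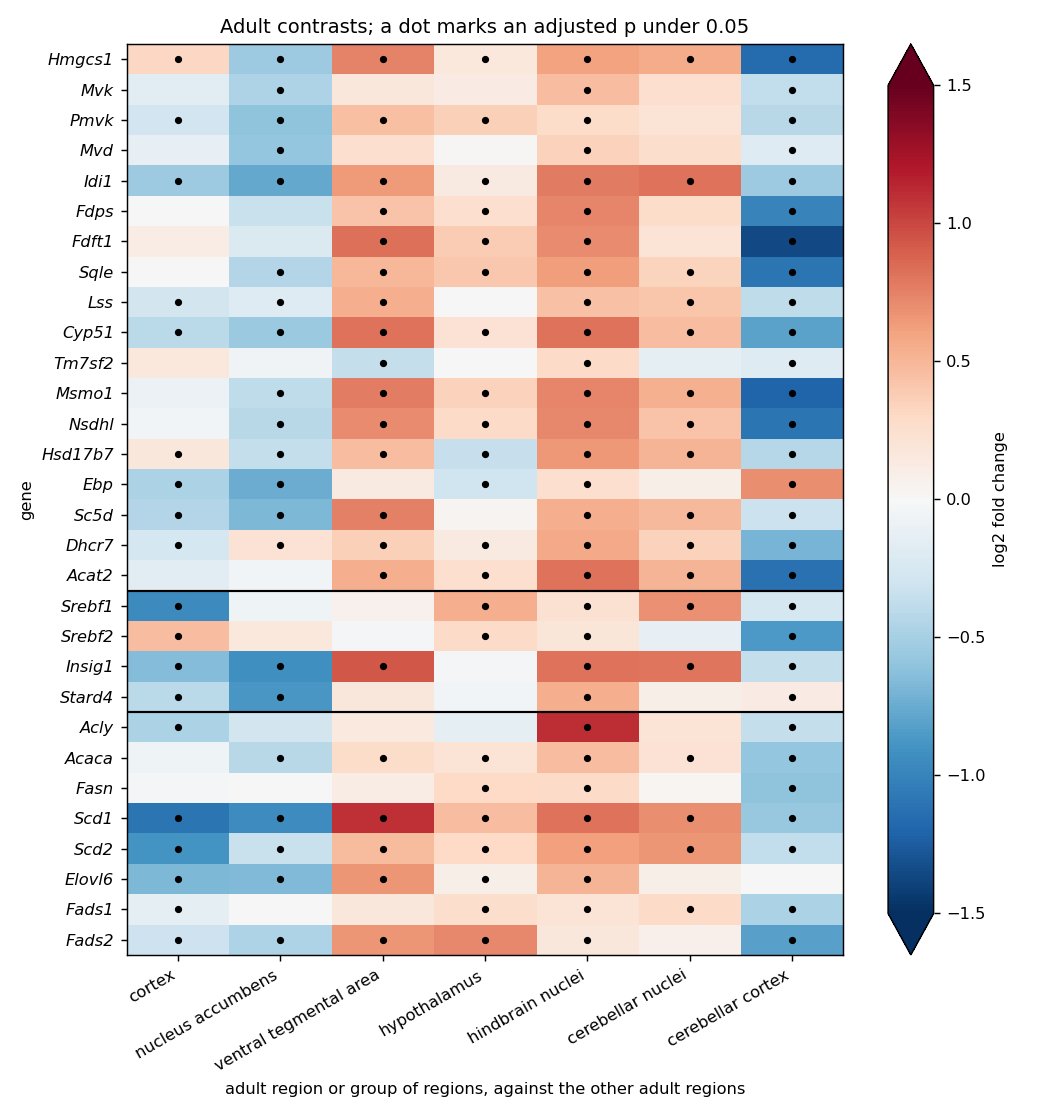
Log2 fold changes of the 30 genes (rows) in 7 adult comparisons (columns: each region or set of regions against the other adult regions), with colours limited to 1.5 in either direction and a dot where the adjusted p was under 0.05. The column of the hindbrain nuclei holds 30 dots, all on the higher side, and that of the cerebellar cortex 27 on the lower side, with Ebp and Stard4 on the higher side.

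Few of these adult differences were larger than 1 on the log2 scale. Only Acly passed that limit in the hindbrain nuclei (higher, against 5.17% of all genes, with 2.67% lower), and Scd1 alone in the cerebral cortex (lower, against 7.95%, with 8.17% higher). In the cerebellar cortex 6 sterol enzymes did so, all lower, against 9.75% of all genes lower and 8.21% higher. No member passed it in the hypothalamus, where 6.11% of all genes were higher and 2.74% lower by that rule, in CBN (7.86% and 2.88%) or in ACB (7.3% and 5.49%), although the unlimited edgeR test called members in each. In VTA it was passed by Scd1, which was higher, against 6.89% of all genes higher and 3.65% lower.

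Among the single regions, CBN had 17 members higher and 0 lower, where 22.1% of all genes were higher and 18.7% lower. At an unadjusted p under 0.05 edgeR had 20 higher and 0 lower, and DESeq2 and limma called 0 lower. On the TPM scale limma called 10 higher. Idi1 (0.81 ± 0.08), Insig1 (0.80 ± 0.08), Scd1 (0.70 ± 0.09), Srebf1 (0.68 ± 0.11) and Scd2 (0.66 ± 0.08) had the largest differences. All 10 myelin markers were higher in CBN, with a median of 2.01, and all 4 choroid plexus markers, with a median of 5.33. ACB had 20 members lower and 1 higher, where 19.5% of all genes were lower and 21.8% higher. Scd1 (−0.94 ± 0.10), Insig1 (−0.92 ± 0.10), Stard4 (−0.87 ± 0.09), Idi1 (−0.77 ± 0.09) and Ebp (−0.75 ± 0.10) were lowest relative to the other regions, and Dhcr7 was higher by 0.22 ± 0.08 (adjusted p = 0.0348). That call was lost without ACB replicate 2 (edgeR adjusted p = 0.182), without ACB replicate 3 (0.286) and with limma on log2(TPM + 0.5) (0.792), which called 0 members higher. The myelin markers were not lower in ACB, since 2 of 10 were higher and their sum was 2642 to 3065 TPM.

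VTA had 20 members higher and 1 lower, where 22.7% of all genes were higher and 18.1% lower. These counts changed when the library with the high mitochondrial share was left out, and with the scale used. With that library left out, 27 were higher and 0 lower. On the TPM scale with limma, which does not correct for the mitochondrial share, 4 were higher and 8 lower with it, the median of all genes moved by −0.35, and only 9.24% of all calls were higher, against 55.6% in edgeR. Without it, limma called 13 higher and 0 lower. Scd1 was at 114.9 TPM in VTA replicate 1 and at 192.4 and 199.9 TPM in the other libraries, and differed by 1.09 ± 0.08 (adjusted p = 1.69e-15). Insig1 (0.93 ± 0.08), Fdft1 (0.83 ± 0.10) and Cyp51 (0.81 ± 0.08) followed. Tm7sf2 was called lower (−0.36 ± 0.14, adjusted p = 0.0278), and that call was lost without VTA replicate 1.

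The members shared much of their adult profile. Over the 18 adult group means, on the scale log2(TPM + 0.5), the 153 pairs of sterol enzymes had a median Pearson correlation of 0.6732, and 108 of them were above 0.5. The median was 0.6582 over the 144 pairs of a sterol enzyme with a fatty acid gene, and 0.6783 over the 28 pairs of fatty acid genes. Sqle and Nsdhl were the most alike pair (0.9834). Ebp ran against some members (−0.5267 to Hmgcs1, −0.7077 to Srebf2) and with others (0.7861 to Stard4, 0.6672 to Elovl6). The 3 regulators and the carrier were little alike (median 0.1344). These correlations describe 18 points that share mice and depth, and are given with no test. The summed myelin markers correlated with the fatty acid sum at 0.7989 and with the sterol sum at 0.5507. Myelin was not the only list the members followed. Of the 18 sterol enzymes, 6 were above 0.5 with the myelin sum and 7 with the microglia sum (medians 0.468 and 0.251). Of the 8 fatty acid genes, these were 4 and 1 (medians 0.538 and 0.178). With the endothelial sum 4 sterol enzymes and 3 fatty acid genes were above 0.5. Other lists ran largely the other way. The medians over the sterol enzymes and the fatty acid genes were −0.605 and −0.599 with the proliferation sum. With the neuron sum they were −0.36 and −0.49. Scd2 (0.8582), Insig1 (0.8387), Scd1 (0.8175) and Sc5d, a sterol desaturase (0.8006), followed the myelin sum most closely, and Srebf2 (−0.1442) and Tm7sf2 (−0.1074) did not. ARH departs from this relation: its myelin markers summed to 804.2 TPM, less than in FRP (852.4 TPM), while its fatty acid sum was 1611 TPM, against 1043 TPM in FRP.

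**Figure D4:**
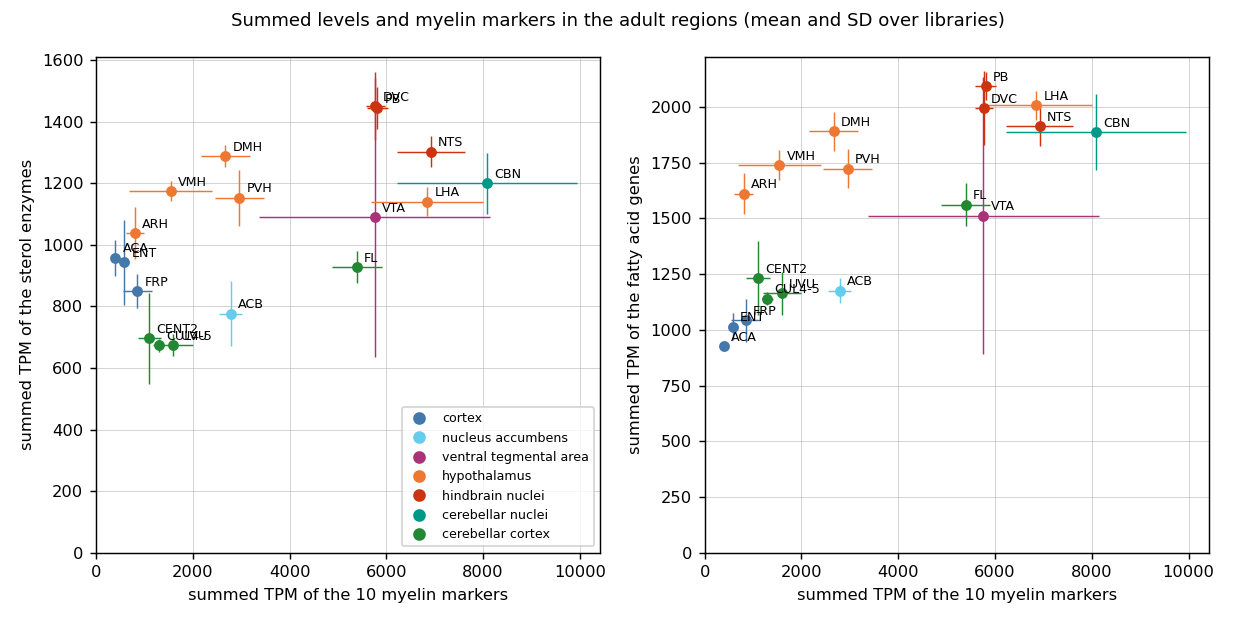
Summed TPM of the sterol enzymes and of the fatty acid genes (mean and SD over the libraries of a group) against the summed TPM of 10 oligodendrocyte and myelin markers in the 18 adult groups. The fatty acid sum rises with the myelin sum across the groups more closely than the sterol sum does, and ARH lies above the cortical areas at a like myelin sum.

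The embryonic brain was compared with the adult brain to ask how the pathway differs with stage. Of the 30 members 16 were higher and 12 lower in the embryonic brain, where 37.6% of all genes were higher and 36.7% lower. Of the sterol enzymes 12 were higher and 5 lower (median 0.37), 4 fatty acid genes were higher and 4 lower (median −0.00), and 3 of the regulators and carrier were lower. The sterol sum was 1.239 times and the fatty acid sum 0.7335 times the adult one. Both ratios include H replicate 1 and VTA replicate 1. Without H replicate 1, Pmvk was no longer called lower (edgeR adjusted p = 0.0921). Among the sterol enzymes Hmgcs1 (0.72 ± 0.06), Cyp51 (0.78 ± 0.05), Sqle (0.62 ± 0.07) and Acat2 (1.36 ± 0.08, adjusted p = 1.03e-22) were higher, and the last steps from Msmo1 on held the 4 largest decreases. Ebp fell by 1.11 ± 0.07, Sc5d by 0.77 ± 0.06, Hsd17b7 by 0.72 ± 0.07 and Msmo1 by 0.55 ± 0.06 on the log2 scale. Nsdhl (0.49) and Dhcr7 (0.19) of the same late steps were higher. By more than 1, Acat2 was higher (17.8% of all genes) and Ebp, Scd1 and Scd2 were lower (19.9% of all genes).

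Acat2 was at 146.4 TPM in F, at 154.7 and 162.2 TPM in M, at 34.14, 71.1 and 125.7 TPM in H and at 146.7, 84.35 and 83.74 TPM in THy-PHy. The adult libraries lay between 17.95 and 79.6 TPM, so only 2 libraries of H were within the adult range. Ebp was at 20.2 TPM in F, 36.73 and 28.47 TPM in M, 10.63, 27.17 and 31.12 TPM in H and 34.46, 26.37 and 36.73 TPM in THy-PHy, and its adult median was 59.53 TPM. Insig1 (−0.92 ± 0.07), Stard4 (−0.93 ± 0.06) and Srebf1 (−0.64) were lower in the embryonic brain, and Srebf2 was not called (0.16, adjusted p = 0.0513), but was called at 0.23 without H replicate 1 and at 0.19 without VTA replicate 1.

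The 2 stearoyl-CoA desaturase genes among the members both lie on chromosome 19, Scd1 at chr19:44394455-44407879 on the minus strand and Scd2 at chr19:44293674-44306864 on the plus strand (GRCm38). Scd1 was at 8.332 TPM in F, at 7.245 and 7.265 TPM in M, at 5.268, 8.233 and 7.915 TPM in H and at 6.879, 6.867 and 6.57 TPM in THy-PHy. The lowest adult library was at 48.88 TPM, far above every embryonic library. The log2 fold change of Scd1 was −4.01 ± 0.10 (adjusted p = 1.5e-37), by far the largest difference of a member. Scd2 was at 361.3 TPM in F and between 117.4 and 392 TPM in the other embryonic libraries, against 326.6 to 1159 TPM in the adult ones, and fell by 1.24 ± 0.07. The ratio of Scd2 to Scd1 was therefore 4.287 to 8.913 in the adult groups and 30.88 to 49.19 in the embryonic groups. All 10 myelin markers were lower in the embryonic brain, with a median of −6.28 and sums of 35.56 to 82.5 TPM, and the red cell genes summed to 3684 to 9783 TPM there. Their part in these values was not tested.

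**Figure D5:**
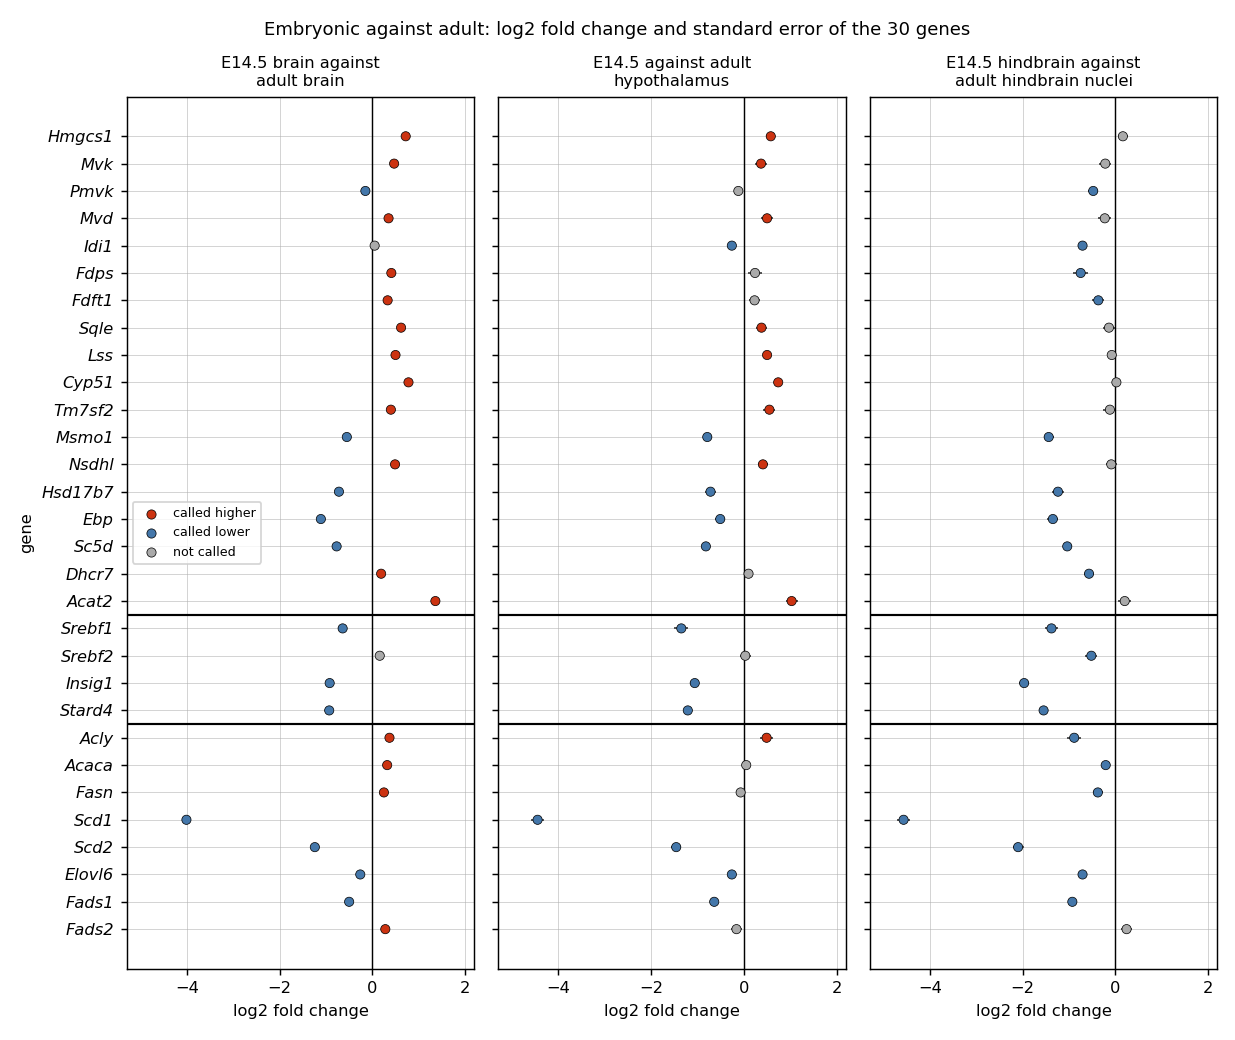
Log2 fold changes (points) with their SE (bars) of the 30 genes in 3 comparisons (panels: embryonic brain against adult brain, embryonic hypothalamus against adult hypothalamus, embryonic hindbrain against adult hindbrain nuclei), with genes called higher in red, lower in blue and not called in grey. Scd1 lies near −4 in each panel, and the third panel has no gene in red.

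In the hypothalamus alone, 10 members were higher and 12 lower in the embryo, where 33.9% of all genes were higher and 33.6% lower. On the TPM scale limma called 5 higher. Acat2 (1.03 ± 0.13), Cyp51 (0.74 ± 0.09) and Hmgcs1 (0.58 ± 0.10) were higher, and Scd1 (−4.45 ± 0.14), Scd2 (−1.46 ± 0.11), Srebf1 (−1.35 ± 0.15), Stard4 (−1.21 ± 0.09) and Insig1 (−1.06 ± 0.10) lower. These 5 and Acat2 passed the limit of 1, against 20% of all genes lower and 18.2% higher. In the hindbrain, 20 members were lower and 0 higher against PB, NTS and DVC, where 34.2% of all genes were lower and 36.6% higher. At an unadjusted p under 0.05 edgeR had 1 higher, Fads2 (0.24 ± 0.12), and DESeq2 called 1 higher. Besides Scd1 (−4.57 ± 0.14) and Scd2 (−2.10 ± 0.12), Insig1 (−1.97 ± 0.11), Stard4 (−1.55 ± 0.10), Msmo1 (−1.44 ± 0.11), Srebf1 (−1.38 ± 0.15) and Ebp (−1.35 ± 0.12) were lower. In all, 9 were lower by more than 1, against 21.1% of all genes lower and 23% higher. The hindbrain comparison depended on H replicate 1, whose sterol sum was 531.8 TPM against 1057 and 1419 TPM. Without it, 16 were lower and 2 were higher, Hmgcs1 (0.33) and Acat2 (0.44).

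The difference between the embryonic effects in these 2 regions was tested as an interaction, a comparison added after the values had been seen. The embryonic effect was higher in the hypothalamus than in the hindbrain for 22 members and lower for 0, where 15.3% of all genes were higher and 15.1% lower. A higher effect can be a smaller decrease, as it was for Insig1, Scd2 and Stard4. At an unadjusted p under 0.05 edgeR had 1 lower, Fads2 (−0.40 ± 0.17), and DESeq2 called 1 lower. On the TPM scale limma called 12 or 13 higher and 0 lower, depending on the pseudocount and the filter. The edgeR calls covered 16 of 18 sterol enzymes, 3 of 4 regulators and carrier, and 3 of 8 fatty acid genes. Acly differed most, by 1.37 on the log2 scale, and was the only member past 1, against 3.46% of all genes higher and 6.38% lower. Without H replicate 1 the count was 11 higher and 0 lower, with Acly at 1.14, Insig1 at 0.75, Fdps at 0.70, Ebp at 0.66, Cyp51 at 0.60 and Acat2 at 0.59. Acly was at 53.44, 131.6 and 173.6 TPM in H. All 30 members had been higher in the adult hindbrain nuclei than in other adult regions, and these adult libraries enter the interaction as well.

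In the stem cells 9 members were higher and 15 lower than in the embryonic brain, where 38.7% of all genes were higher and 38.9% lower. These directions depend on the scaling, since DESeq2, whose size factors moved the median of all genes by 0.15, called 14 higher and 9 lower. Scd1 (2.30 ± 0.10), Ebp (2.10 ± 0.10) and Elovl6 (1.86 ± 0.08) were higher by far more than that shift, and were the 3 members higher by more than 1, against 26.8% of all genes. Ebp was at 123.1 and 107.1 TPM in mESC B6-1 and at 76.15 and 65.51 TPM in mESC B6-2, each above every embryonic library. Elovl6 was at 78.02, 78.54, 83.15 and 75.53 TPM over the 4 libraries, against 20.04 to 28.7 TPM in the embryonic brain. Scd1 was at 29.04, 29.53, 26.33 and 27.12 TPM, between the embryonic and the adult libraries. Insig1 (0.85 ± 0.09), Idi1 (0.78 ± 0.09), Msmo1 (0.76 ± 0.09) and Acly (0.70 ± 0.13) were also higher. Fdps (0.33 ± 0.14) was called higher as well, but not without H replicate 1 (0.26, edgeR adjusted p = 0.0509).

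Fads2 (−1.21 ± 0.12), Fads1 (−1.20 ± 0.08) and Scd2 (−1.11 ± 0.10) were lower in the stem cells by more than 1, against 29% of all genes, and so, by less, were Mvk (−0.98 ± 0.13), Sc5d (−0.95 ± 0.09), Tm7sf2 (−0.89 ± 0.14) and Hmgcs1 (−0.85 ± 0.11). Fads1 and Fads2, the desaturases of polyunsaturated fatty acids, are neighbours on chromosome 19 (chr19:10182888-10196877 and chr19:10062765-10101746). In mESC Fads1 was at 32.21, 31.13, 31.87 and 33.84 TPM and Fads2 at 50.35, 57.8, 54.6 and 57.74 TPM, and no brain library was as low. Hmgcs1 was at 114.7, 111.5, 138.6 and 134.8 TPM. The stem cells thus held more Scd1 and Elovl6 and less Fads1, Fads2 and Scd2 than the embryonic brain. They were cultured with leukemia inhibitory factor and kinase inhibitors, and their RNA was isolated with another kit than that of the brain tissue. Cell type, culture and batch therefore cannot be told apart. Between the clones edgeR called Ebp alone, which was higher in mESC B6-1 by 0.81 ± 0.16 (adjusted p = 0.00201), where 0.726% of all genes were higher and 0.365% lower (0.22% and 0.115% by more than 1). At an unadjusted p under 0.05, 8 members were higher and 0 lower. This count depends on the fit, since edgeR on the libraries of the 2 clones alone called 12 higher and 1 lower, and limma called 0. The call of Ebp was lost without mESC B6-1 replicate 1 and without mESC B6-2 replicate 2.

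For most members 1 transcript carried the level, and 25 of 30 had a transcript with over 50% of the adult TPM. Lss, the lanosterol synthase that closes the ring system, was the main exception. Its protein-coding transcripts made up 14.9% of its TPM in adult regions outside the cerebellar cortex, 13.7% in the embryonic brain and 23.8% in mESC. A transcript with a retained intron, Lss-204, of 6992 bases, held 63.9% of its counts in the same adult regions, 58.1% in the embryonic brain and 14% in mESC. The coding transcripts of Lss summed to 3.165 TPM in the adult brain, 5.981 TPM in the embryonic brain and 9.53 TPM in mESC, so that the direction of Lss between mESC and the embryonic brain was lower on counts (−0.24) and higher on coding TPM (0.67 on the log2 scale). Fasn, the fatty acid synthase, was similar, with a coding share of 55.3% in the adult regions, 39.3% in the embryonic brain and 76.8% in mESC, and its log2 difference between mESC and the embryonic brain was 0.20 on counts, −0.90 on gene TPM and −0.05 on coding TPM. Scd1, Scd2, Fads1, Fads2 and Srebf2 had a single transcript, so their values do not depend on this. Counts of genes that share sequence are less certain. Of all stretches of 31 bases in the transcripts of a gene, 43.7% were shared with another gene for Acat2, 33.5% for Acaca, 31.9% for Fdft1, 27.9% for Fdps and 27.1% for Idi1, while Scd1 and Scd2 shared 8.18% and 6.81%.

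A list of 24 further genes that handle sterols and lipids (cholesterol export, esterification and turnover, lipid chaperones, SREBP processing) was counted in the same fits. In the embryonic brain 6 were higher and 17 lower than in the adult brain (of all genes 37.6% and 36.7%), with Fabp7, a fatty acid binding protein of radial glia, at 3.15 ± 0.12, Fabp5 at 1.07 ± 0.09 and Elovl7 at −3.69 ± 0.16. Fa2h, which makes the hydroxylated lipids of myelin, was at −8.06 ± 0.29, a value that rests on 1 to 12 counts in each embryonic library. In the hindbrain nuclei 13 were higher and 6 lower (of all genes 26.1% and 24.6%). Ugt8a (1.67 ± 0.09) and Fa2h (1.65 ± 0.09), both of myelin lipid synthesis, were highest, and Lpl, lipoprotein lipase, was lowest (−0.86 ± 0.12). Cyp46a1, the neuronal hydroxylase through which brain clears cholesterol, was lower there (−0.53 ± 0.06) and in CBN (−1.05 ± 0.11), cerebellar cortex (−1.55 ± 0.06) and VTA (−0.53 ± 0.11). It was higher in cerebral cortex (1.90 ± 0.05), ACB (1.21 ± 0.09) and the hypothalamus (0.48 ± 0.05). In the cerebral cortex 6 were higher and 13 lower (of all genes 28.9% and 29.8%), with Aacs at 0.63 ± 0.08, Fa2h at −2.49 ± 0.13 and Ugt8a at −2.17 ± 0.12. In the cerebellar cortex 9 were higher, led by Nr1h3, a sterol-sensing nuclear receptor (1.81 ± 0.09), and Abcg1, a cholesterol exporter (0.63 ± 0.05), and 13 were lower, Fabp5 by −1.23 ± 0.09, where 32.9% of all genes were higher and 33.1% lower. ACB had 4 higher and 6 lower (of all genes 21.8% and 19.5%), with Lpl at 3.20 ± 0.13, Me1 at −1.09 ± 0.07 and Acss2 at −0.78 ± 0.10.

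In the remaining comparisons of this list, the hypothalamus had 6 higher and 10 lower (of all genes 26.9% and 24.3%), with Soat1 at 0.30 ± 0.04, Nr1h3 at −0.56 ± 0.11 and Elovl7 at −0.53 ± 0.08. CBN had 10 higher and 3 lower (of all genes 22.1% and 18.7%), with Ugt8a at 2.19 ± 0.13, Elovl7 at 2.18 ± 0.11 and Mylip at −0.34 ± 0.12, and VTA had 12 higher and 3 lower (of all genes 22.7% and 18.1%), with Fa2h at 2.05 ± 0.13, Ugt8a at 1.76 ± 0.13 and Mbtps1 at −0.25 ± 0.06. The embryonic hypothalamus had 5 higher and 14 lower than the adult one (of all genes 33.9% and 33.6%), with Fabp7 at 2.48 ± 0.22, Fabp5 at 0.87 ± 0.16, Fa2h at −8.01 ± 0.41 and Cyp46a1 at −3.78 ± 0.15. The embryonic hindbrain had 6 higher and 16 lower (of all genes 36.6% and 34.2%), with Fabp7 at 3.30 ± 0.23, Lpl at 1.54 ± 0.20, Fa2h at −7.50 ± 0.34 and Ugt8a at −4.99 ± 0.26. The stem cells had 7 higher and 13 lower than the embryonic brain (of all genes 38.7% and 38.9%), with Elovl7 at 3.11 ± 0.18 and Me1 at 1.05 ± 0.07. Fabp7 and Cyp46a1 were lowest, with 2 and 7 counts in all 4 mESC libraries together against 40820 and 1352 in the 9 embryonic ones. Abca1, a cholesterol exporter, was the only gene of the list called between the mESC clones (0.83 ± 0.17), where 0.726% of all genes were higher and 0.365% lower.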

How the data were processed

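The authors sequenced mRNA as single reads on a HiSeq2000 (base calls by CASAVA 1.8.2, per the labels) and ran kallisto on the Ensembl GRCm38 cDNA. They deposited estimated counts per transcript, not normalized between libraries, and TPM per transcript and per gene, which kallisto scales within each library. The strand setting is not given in the sources used here. Here 107987 of 109282 transcripts (98.81%) were matched to genes with a GENCODE mouse annotation, and the estimated counts of a gene's transcripts were added up, then rounded. All 70 libraries entered 1 edgeR 4.0.16 model (R 4.3.3) with a coefficient for each group, after filterByExpr and TMM, and contrasts were tested by quasi-likelihood, with p-values adjusted by Benjamini-Hochberg over 19980 genes and calls at an adjusted p under 0.05. Alternatives used DESeq2 1.42.0, limma 3.58.1 on log2(TPM + 0.5) or log2(TPM + 0.1), no filter on low values, a replicate block, other sets of libraries, and each library left out. Only the edgeR fit was tested on simulated counts, and only for the comparison of the adult hindbrain nuclei. It called 154 of 190 genes changed by 1 on the log2 scale, and 15 unchanged genes. The simulated libraries were independent and held no other difference between groups. All 30 members are named, the further list by its 2 largest calls in each direction. The members and lists were chosen with earlier results of these data known. Sequences came from RefSeq, and figures were drawn with matplotlib 3.10.9 in Python 3.11.15.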

Additional observations from a re-analysis of the deposited data

Results flagged for a closer look

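Of 160 tests, of the 30 genes and 2 branch sums in each group of 4 libraries, 8 had a highest or lowest library that lay far from the others, and chance flags about 1 in 20 groups. CENT2 replicate 1 was high for Fdps (106.8 TPM, the others 50.05 to 58.61), Lss (21.02, the others 15.51 to 16.13), Tm7sf2 (27.57, the others 17.62 to 19.32) and Acat2 (38.54, the others 21.29 to 23.15). The sterol sum of that library was 910.5 TPM, against 592.5 to 683.1 TPM in the other CENT2 libraries, and its myelin sum was 1346 TPM, against 808.6 to 1250 TPM. FL replicate 3 was low for Tm7sf2 (18.52 TPM, the others 24.01 to 24.67). CUL4-5 replicate 4 was high for Ebp (122.6 TPM, the others 106.3 to 107.9). DMH replicate 2 was low for Acat2 (46.96 TPM, the others 58.27 to 58.67), and DMH replicate 1 for Stard4 (18.56 TPM, the others 19.57 to 19.66).

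The log2 difference of embryo minus adult was higher in the hypothalamus than in the hindbrain for 22 members by the interaction test, at an adjusted p under 0.05. The values are the hypothalamic difference minus the hindbrain one. Among the early enzymes these were Acat2 (0.83), Hmgcs1 (0.42), Mvk (0.59), Mvd (0.74), Idi1 (0.46), Fdps (0.99), Fdft1 (0.60), Sqle (0.52) and Lss (0.57). Among the later enzymes they were Cyp51 (0.72), Tm7sf2 (0.67), Msmo1 (0.65), Nsdhl (0.51), Hsd17b7 (0.52), Ebp (0.83) and Dhcr7 (0.66). Srebf2 (0.56), Insig1 (0.91) and Stard4 (0.34) were the regulators and carrier, and Acly (1.37), Scd2 (0.65) and Elovl6 (0.45) the fatty acid genes. Without H replicate 1, 11 of these 22 were called.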

How the results depend on the processing

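Requiring a log2 fold change above 1 as well left 1 member higher and 3 lower in the embryonic brain, 1 and 5 in the embryonic hypothalamus, 9 lower in the embryonic hindbrain, 3 and 3 in mESC, 0 and 0 in the adult hypothalamus, 1 higher in the hindbrain nuclei, 0 and 1 in cortex, 0 and 6 in cerebellar cortex, 0 higher in CBN, 0 and 0 in ACB, 1 and 0 in VTA, 0 between the clones and 1 in the interaction. On the TPM scale with limma (pseudocount 0.5, 0.1, or 0.5 without a filter), 5 were higher in the embryonic hypothalamus, 1 was lower in the adult hypothalamus, 10 were higher in CBN, 0 were higher in ACB (13 lower without the filter), 4 were higher and 8, 8 and 7 lower in VTA, 0 differed between the clones, and 13, 13 and 12 were higher in the interaction. These limma fits moved the median of all genes in VTA by −0.35, −0.45 and −0.18. With VTA replicate 1 left out as well, an alternative chosen after seeing the data, limma called 13 higher and 0 lower in VTA. DESeq2 called 1 higher in the embryonic hindbrain, 14 higher and 9 lower in mESC, and 1 lower in the interaction. Fitting only the groups compared gave 1 higher in the embryonic hindbrain, 12 higher and 1 lower between the clones, and 1 lower in the interaction. Without VTA replicate 1, edgeR called 1 higher in the embryonic hindbrain and 0 lower in VTA.

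Genes whose sign turned did so with limma, apart from Stard4. Fasn was at 0.31 in the embryonic hypothalamus, 0.09 in the embryonic hindbrain and −0.90 in mESC, Lss at 0.32 in mESC, and in cerebellar cortex Tm7sf2 was at 0.01 and Elovl6 at 0.13 or 0.14. In VTA these were Mvk (−0.48 or −0.49), Fdps (−0.17), Sqle (−0.02 or −0.03), Lss (−0.01), Ebp (−0.49), Dhcr7 (−0.44 or −0.45), Acat2 (−0.07), Srebf1 (−0.35 or −0.36), Stard4 (−0.38 or −0.39), Acly (−0.59), Acaca (−0.31), Scd2 (−0.08) and Fads1 (−0.37). Stard4 in mESC was at 0.02 under the replicate block and at 0.01 without F replicate 1, and ranged from −0.32 to 0.01 with 1 library left out. The cause was not tested beyond the VTA count without replicate 1.

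With each library left out in turn, the members called higher and lower ranged from 16 to 17 and 11 to 12 in the embryonic brain, 9 to 11 and 10 to 12 in the embryonic hypothalamus, 0 to 2 and 16 to 21 in the embryonic hindbrain, 7 to 12 and 13 to 15 in mESC, 18 to 20 and 2 to 3 in the adult hypothalamus, 29 to 30 and 0 in the hindbrain nuclei, 2 to 4 and 16 to 18 in cortex, 2 and 27 in cerebellar cortex, 15 to 19 and 0 in CBN, 0 to 1 and 15 to 20 in ACB, 18 to 27 and 0 to 1 in VTA, 0 to 1 and 0 between the clones, and 11 to 26 and 0 to 1 in the interaction. The libraries behind a move by over 1.5 times were H replicate 1 (2 higher in the hindbrain, 11 in the interaction), H replicate 3, PB replicate 3, THy-PHy replicate 2 and VMH replicate 1 (1 call each), ACB replicates 2 and 3 (0 higher), VTA replicates 1 and 3 (0 lower), and mESC B6-1 replicate 1 and mESC B6-2 replicate 2 (0 between the clones).

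The deviations of same-numbered libraries of other groups correlated with a median of 0.0069 over 669 pairs, and 34 pairs were above 0.1. For libraries with other numbers the median was −0.00298 over 1603 pairs, and 44 were above 0.1. The labels do not tie a replicate number to a mouse or a batch. Neither these values nor the block fit can therefore show whether shared mice matter. The fit with the number as a replicate block, which leaves out F, called 1 member higher in the embryonic hindbrain and moved no other count of members by over 1.5 times. The cDNA reference and the sharing of sequence between genes limit Acat2, Acaca, Fdft1, Fdps and Idi1, and the retained-intron transcripts limit Lss and Fasn. F had 1 library. Stage, tissue and batch cannot be told apart, and myelin, astrocyte and choroid plexus markers moved with several results. At this depth no member was near the filter.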
